A study of Mus musculus with 12 samples.

Results

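The 10 genes described here are 8 matrix metalloproteinases (Mmp2, Mmp3, Mmp7, Mmp8, Mmp9, Mmp10, Mmp13 and Mmp14) and 2 of their tissue inhibitors (Timp1 and Timp3), taken by name from the 54532 genes counted in each of 12 mouse colon RNA libraries. All 10 passed the filter on low counts, which left 17658 genes for testing. The study used the DSS model of ulcerative colitis, in which dextran sulfate sodium in the drinking water injures the colon epithelium. It compared ursolic acid (UA, a plant triterpenoid) started before DSS with UA started after DSS had begun. The 3 Con libraries carry the label untreated, whereas the methods describe gavage with the vehicle. Mice of the DSS group (3 libraries) drank 3% (w/v) DSS for 5 days. UA was gavaged at 200 mg/kg in both UA groups. By the methods, UA+DSS (3 libraries) received it for 7 days, starting 1 day ahead of DSS. DSS+UA (3 libraries) received it for 4 days, starting 3 days after the change to DSS water. All mice were male C57BL/6 animals, obtained at 6 weeks of age and adapted for 1 week. None of the groups analysed here received UA without DSS, the segment of colon sampled is not given in the sources used here, and no label says that each library came from a separate mouse, so p-values measure the spread between these libraries only.

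Matrix metalloproteinases are zinc-dependent enzymes that are made as inactive precursors and, once activated, cut collagens, laminins, proteoglycans and signalling proteins outside the cell. The tissue inhibitors bind the active site and block it. In the colon, fibroblasts, macrophages, neutrophils and epithelial cells each make their own set of these enzymes, and mucosal injury and inflammation are known to raise several of them.

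Of the 23 Mmp genes in the GRCm38 annotation, 10 lie side by side in a 427 kb stretch of chromosome 9 (chr9:7272514-7699585) with no other protein-coding gene between them. The members Mmp13, Mmp3, Mmp10, Mmp8 and Mmp7 stand in this stretch in that order, all on the + strand. Their promoters are printed because Mmp3, Mmp10 and Mmp13 moved closely together across the libraries, while Mmp7, from the same stretch, correlated less with them, and Mmp8 is shown as the neighbour without a match in the window printed. Each line holds the 120 bases before the start site of RefSeq (GRCm38.p6, + strand): chr9:7445702-7445821 for Mmp3, chr9:7502222-7502341 for Mmp10, chr9:7272394-7272513 for Mmp13, chr9:7691970-7692089 for Mmp7 and chr9:7558309-7558428 for Mmp8. Capitals mark each full match to the AP-1 motif TGANTCA or to the TATA box TATAAA, searched on both strands, and these matches do not overlap each other.
Mmp3: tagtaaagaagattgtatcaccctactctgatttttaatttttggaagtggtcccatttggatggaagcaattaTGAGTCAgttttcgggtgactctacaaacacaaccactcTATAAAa
Mmp10: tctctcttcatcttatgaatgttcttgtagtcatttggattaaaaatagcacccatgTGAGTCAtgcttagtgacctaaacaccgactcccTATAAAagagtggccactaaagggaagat
Mmp13: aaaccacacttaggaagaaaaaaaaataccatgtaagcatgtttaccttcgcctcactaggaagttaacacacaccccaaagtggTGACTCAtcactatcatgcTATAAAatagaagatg
Mmp7: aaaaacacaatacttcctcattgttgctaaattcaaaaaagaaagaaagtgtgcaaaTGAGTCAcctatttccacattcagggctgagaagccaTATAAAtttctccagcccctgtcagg
Mmp8: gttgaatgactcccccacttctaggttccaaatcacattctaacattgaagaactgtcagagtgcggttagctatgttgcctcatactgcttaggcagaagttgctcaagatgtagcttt
Counted from the start site, an AP-1 match began at -46 in Mmp3, -63 in Mmp10, -35 in Mmp13 and -63 in Mmp7, and the Mmp8 window held none. A TATA box match stood between the AP-1 match and the start in the same 4 genes, and the Mmp8 one, on the other strand, spanned the start and is not in the window printed. Over windows from 250 bases before to 50 after the start, 8 of the 10 Mmp genes of the stretch held an AP-1 match and 9 a TATA box match. Among 27025 genes with a promoter in the same table these shares were 8.97% and 15.7%. None of the 8 other Mmp genes with a promoter there and none of the 4 Timp genes held an AP-1 match. For Mmp7 RefSeq gave a second start, whose window held no AP-1 or TATA box match, and the first is the one printed. Promoters were matched for 8 of the 10 members, not for Mmp2 and Mmp9. A match to these letters is a description of the sequence and does not show that a factor binds.

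Total counts were 15566216 to 19498383 per library. Values are given as CPM, the read count of a gene relative to the size of its library after TMM scaling in edgeR, and a gene was called raised or lowered when its edgeR adjusted p was under 0.05. A library is named by group and replicate number, and values are listed in the order of those numbers. The epithelial marker list (8 genes, among them Epcam and Cdh1) summed to 7353 to 24545 CPM in the 12 libraries, with no gene at 0 in any group. The library DSS 2 stood apart in neutrophil markers, with a summed level of 18208 CPM against 910 and 1007 in the other DSS libraries, and DSS 3 in pancreas acinus genes, with 15454 CPM against 31.4 to 554 in the other 11. A score of position along the colon (distal minus proximal Hox genes, mean log2 CPM) ran from 0.366 to 3.1 in DSS, from -5.7 to -4.16 in UA+DSS and from 4.11 to 5.06 in DSS+UA, and over the wide range of -3.03 to 5.53 in Con. UA treatment and this score cannot be told apart where the groups do not overlap.

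The whole set was higher in DSS than in Con. All 10 members were called raised in DSS against Con, in a comparison where 13.9% of the tested genes were, and for all 10 the 3 DSS libraries lay above the 3 Con libraries, as they did for 21.2% of the tested genes. The median log2 fold change of the members was 5.62, and that of all tested genes was -0.03. The members were chosen with earlier results of these data known, so these counts do not speak for the whole family. Of 14 further metalloproteinases and inhibitors tested, 5 were called raised, with a median log2 fold change of 0.53. In bulk tissue, more cells of a type and more RNA per cell cannot be told apart. Compared with DSS, 7 of the 10 were called lowered in UA+DSS (10.5% of the tested genes were) and 4 in DSS+UA (5% of the tested genes were). For 7 members all UA+DSS libraries lay below all DSS libraries, as for 21.7% of the tested genes, and for 6 members all DSS+UA libraries did, as for 16.4%. The median log2 fold changes of the members were -3.63 and -2.33 in these 2 comparisons, which share the DSS libraries, against -0.02 and 0.02 over all tested genes.

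**Figure D1:**
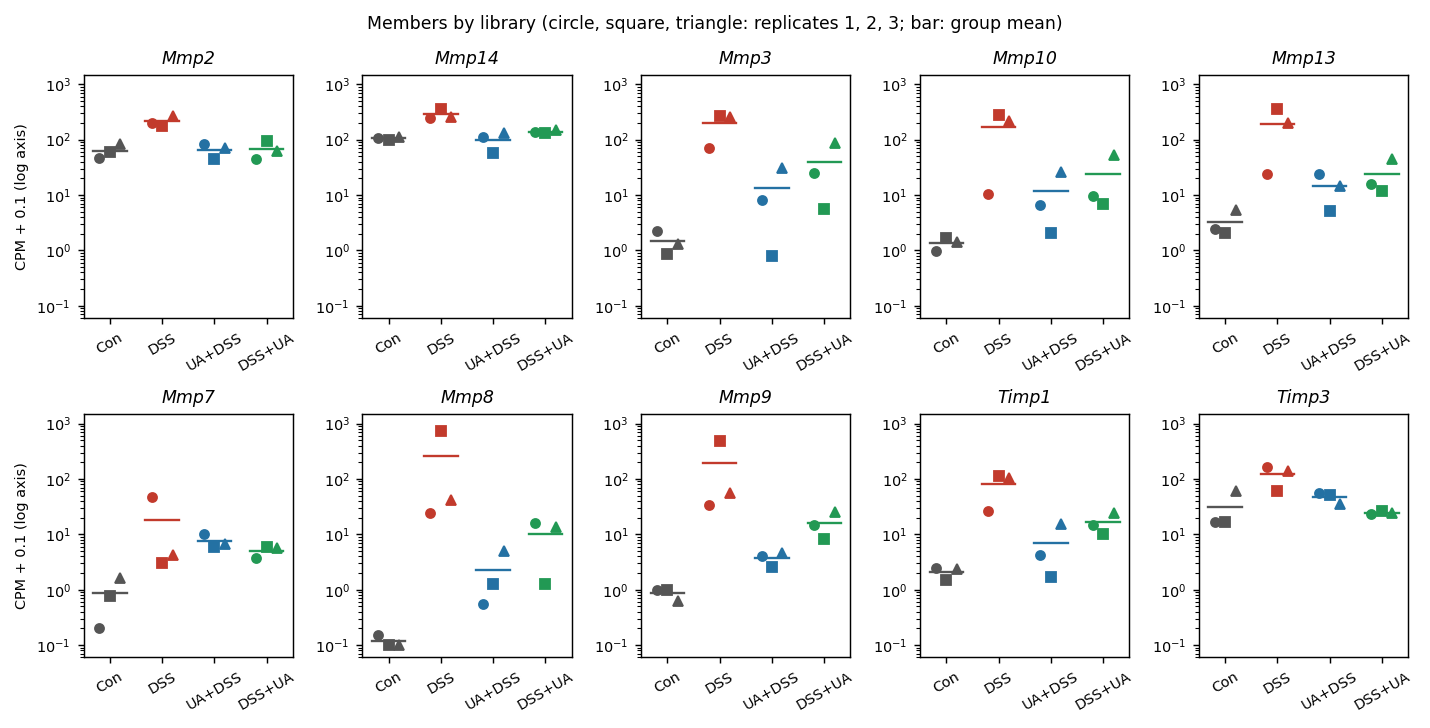
CPM + 0.1 on a log axis for each member in the 4 groups. Circles, squares and triangles are replicates 1, 2 and 3 and bars are group means (n = 3). The DSS points lie above the Con points in every panel, narrowly in Timp3 (61.4 against 60.9 CPM) and by a wide margin in Mmp8 and Mmp9.

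Mmp2 and Mmp14 were, per kb of exon, the most abundant members in Con. Mmp2 encodes gelatinase A, which degrades basement membrane collagen, and Mmp14 encodes the membrane-anchored enzyme that activates it at the cell surface. Mmp2 (ENSMUSG00000031740, GRCm38 chr8:92827291-92853420, + strand) had 46.4, 59.6 and 82.0 CPM in Con and 198, 175 and 267 CPM in DSS. The DSS libraries thus lay above all of Con, and Mmp2 rose 3.4-fold (log2 1.77 ± 0.33 SE, adjusted p = 0.00511). UA+DSS held 84.4, 43.9 and 69.7 CPM of Mmp2, and DSS+UA 44.4, 95.4 and 62.5. Both UA groups overlapped Con and lay below every DSS library. Mmp2 was 3.23-fold lower in UA+DSS than in DSS (log2 -1.69 ± 0.33 SE, adjusted p = 0.0122) and 3.16-fold lower in DSS+UA (log2 -1.66 ± 0.33 SE, adjusted p = 0.023). The first call was lost without UA+DSS 2 (adjusted p = 0.0636) and the second without DSS+UA 3 (adjusted p = 0.104). Both were lost with the position score as a covariate (adjusted p = 0.105 and 0.0677).

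Mmp14 (ENSMUSG00000000957, chr14:54431612-54445364, + strand) was even among the Con libraries, at 109, 99.1 and 112 CPM, and stood at 247, 351 and 261 CPM in DSS. The rise was 2.68-fold (log2 1.42 ± 0.26 SE, adjusted p = 0.00481), the smallest log2 change among the 10 members and the one with the smallest SE. UA+DSS held 111, 57.1 and 132 CPM and DSS+UA 137, 132 and 150 CPM. All 6 values lay below the DSS libraries, and those of DSS+UA lay above all of Con. Mmp14 fell 2.86-fold in UA+DSS against DSS (log2 -1.52 ± 0.27 SE, adjusted p = 0.00998) and kept this call without each library in turn, the only member to do so in that comparison. With the position score as a covariate this call was lost (log2 -1.38, adjusted p = 0.128). Against DSS, DSS+UA was 2.05-fold lower in Mmp14 (log2 -1.03 ± 0.26 SE, adjusted p = 0.0416), and this call was lost under 9 alternatives besides the one with the position score (adjusted p up to 0.125).

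Mmp3, Mmp10 and Mmp13 were low in Con and rose steeply in DSS. Mmp3 and Mmp10 encode stromelysins, which degrade proteoglycans and laminin and activate other metalloproteinase precursors, and Mmp13 encodes collagenase 3, which cuts fibrillar collagen. Mmp3 (ENSMUSG00000043613, chr9:7445822-7455975) had 2.17, 0.777 and 1.23 CPM in Con and 71.5, 272 and 260 CPM in DSS, a 143-fold rise (log2 7.16 ± 1.46 SE, adjusted p = 0.00744). In UA+DSS the 3 libraries spread from 0.687 to 31.2 CPM (7.96, 0.687 and 31.2), so that UA+DSS 2 lay below every Con library and the other UA+DSS libraries above them all. In DSS+UA Mmp3 had 24.5, 5.51 and 87.4 CPM, and DSS+UA 3 passed DSS 1. Mmp3 was 15.1-fold lower in UA+DSS than in DSS with an adjusted p of 0.0485 (log2 -3.92 ± 1.22 SE), a call lost under 12 further alternatives (adjusted p up to 0.146), and the change was log2 -5.55 without UA+DSS 3. The log2 fold change in DSS+UA against DSS was -2.36 ± 1.14 (SE, adjusted p = 0.193) and Mmp3 was not called.

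Mmp10 (ENSMUSG00000047562, chr9:7502352-7510240) had 0.879, 1.55 and 1.34 CPM in Con and 10.5, 284 and 214 CPM in DSS. DSS 1 was low for this gene, with DSS 2 27.1-fold above it. The rise over Con was 135-fold (log2 7.07 ± 1.5 SE, adjusted p = 0.00859), lost in limma-voom (adjusted p = 0.0551), and it was log2 6.48 without DSS 2. UA+DSS held 6.48, 2 and 26.4 CPM and DSS+UA 9.58, 6.87 and 53.8 CPM. Replicate 3 was the highest of both UA groups and exceeded DSS 1 in both. Mmp10 was not called in UA+DSS against DSS (log2 -3.86 ± 1.26 SE, adjusted p = 0.0557) nor in DSS+UA against DSS (log2 -2.86 ± 1.20 SE, adjusted p = 0.142). The first was called by DESeq2 (adjusted p = 0.0075), with at least 10 counts in every sample (0.045) and without DSS 1 (0.0341).

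Mmp13 (ENSMUSG00000050578, chr9:7272514-7283331) had 2.38, 1.94 and 5.24 CPM in Con and 23.4, 356 and 201 CPM in DSS, with the same low DSS 1. It rose 60.6-fold (log2 5.92 ± 1.07 SE, adjusted p = 0.00478), and by log2 5.13 without DSS 2. UA+DSS held 24.1, 5.06 and 14.5 CPM and DSS+UA 15.8, 11.8 and 44.1 CPM. In each UA group 1 library passed DSS 1, so that neither group separated from DSS. Mmp13 was called lowered in UA+DSS against DSS (13.3-fold, log2 -3.74 ± 0.95 SE, adjusted p = 0.0251) and not in DSS+UA against DSS (log2 -3.02 ± 0.92 SE, adjusted p = 0.0659). The first call was lost without DSS 2 (log2 -2.96, adjusted p = 0.0819), UA+DSS 2 (0.104) and UA+DSS 3 (0.0834), without the low-count filter (0.078) and in a fit of the 2 groups alone (0.063). It was also lost with the replicate number as a block (0.0516) and with the position score as a covariate (0.177). The change in DSS+UA against DSS was called by DESeq2 (0.00244), without DSS 1 (0.0318) and with at least 10 counts in every sample. Counting of Mmp3 and Mmp10 is uncertain to a small extent, since 8.39% and 8.37% of their 50-base stretches also occur in another gene.

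Mmp7 had another pattern across the libraries than its neighbours on chromosome 9. Its product, matrilysin, is made mainly by epithelial cells and, in the small intestine, by Paneth cells, where it activates defensins. Mmp7 (ENSMUSG00000018623, chr9:7692090-7699585) had 0.103, 0.666 and 1.55 CPM in Con, from 2, 12 and 29 counts. In DSS it had 47.0, 2.96 and 4.07 CPM, and DSS 1 held 87% of the summed level of the group. Otherwise DSS 1 was the lowest DSS library for 7 members, and it was the highest for Mmp7 and Timp3. The fitted rise was 23.1-fold (log2 4.53 ± 1.13 SE, adjusted p = 0.0165). Without Con 3 it was log2 5.53. Without DSS 1 it was log2 2.18 and not called (adjusted p = 0.0546), and 6 other alternatives also lost the call (adjusted p up to 0.0757). UA+DSS held 10.1, 5.69 and 6.70 CPM and DSS+UA 3.58, 5.81 and 5.49 CPM. All 6 lay above Con, and all of UA+DSS lay above DSS 2 and DSS 3. Mmp7 was not called in UA+DSS against DSS (log2 -1.27 ± 0.97 SE, adjusted p = 0.388) or DSS+UA against DSS (log2 -1.86 ± 0.98 SE, adjusted p = 0.23), and without DSS 1 both log2 fold changes turned positive (1.09 and 0.51). The Paneth cell list (8 genes) summed to 15.6 to 79.1 CPM over the 12 libraries, and 5 of its 8 genes, 4 of them defensins, had too few counts for testing. The antisense gene AV064505, whose exons overlap those of Mmp7, held 2 counts in all, and 7.36% of the 50-base stretches of Mmp7 are shared with other genes.

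Mmp8 and Mmp9 had the largest fitted fold changes of the set in DSS against Con, although Mmp9 ranked below Mmp3 and Mmp10 without DSS 2 (log2 5.85 against 6.88 and 6.48) and below Mmp3 in limma-voom (6.98 against 7.04). Mmp8 encodes neutrophil collagenase and Mmp9 encodes gelatinase B, and both proteins are stored in neutrophil granules, although macrophages and other cells make Mmp9 as well. Mmp8 (ENSMUSG00000005800, chr9:7558456-7568485) had 1 count in Con 1 and none in Con 2 and Con 3, and 24.4, 724 and 41.4 CPM in DSS. Pooled counts were 15738 in DSS and 1 in Con, a ratio of 14785 with an exact 95% interval of 2653 to 584010 that covers counting error only. Without DSS 2, which held 91.7% of the summed level of the group, this ratio was 1821 (326 to 71979), and without Con 1 Mmp8 was at least 3229-fold higher in DSS (taking 3 pooled Con counts as the floor). The fitted change was called (log2 13.38 ± 2.39 SE, adjusted p = 0.00461) but not in limma-voom (adjusted p = 0.0605), and its size rests on the single Con count. UA+DSS held 0.449, 1.19 and 5 CPM and DSS+UA 15.9, 1.18 and 13.6 CPM. All 6 values lay below the lowest DSS library and above Con. Mmp8 was 116-fold lower in UA+DSS than in DSS (log2 -6.86 ± 1.58 SE, adjusted p = 0.0184), a call lost under 5 alternatives besides the position score (adjusted p up to 0.0902). It was not called in DSS+UA against DSS (log2 -4.68 ± 1.41 SE, adjusted p = 0.0638), except by DESeq2 (0.0126) and without DSS 1 (0.0471). Without DSS 2 these changes were log2 -3.88 and -1.67 (adjusted p = 0.363 for the second), and without UA+DSS 3 the first was log2 -8.31.

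Mmp9 (ENSMUSG00000017737, chr2:164940780-164955850, + strand) had 0.879, 0.887 and 0.535 CPM in Con and 33.6, 493 and 55.9 CPM in DSS, with 84.6% of the summed level of the group in DSS 2. It rose 251-fold (log2 7.97 ± 1.15 SE, adjusted p = 0.0025), the smallest p of the set. UA+DSS held 3.98, 2.44 and 4.41 CPM, and DSS+UA 14.6, 8.29 and 25.2 CPM. The 4 groups did not overlap at all, in the order Con, UA+DSS, DSS+UA, DSS. Mmp9 fell 53.6-fold in UA+DSS against DSS (log2 -5.74 ± 1.01 SE, adjusted p = 0.0101), lost only without UA+DSS 2 (0.0609) and with the position score, and 12.1-fold in DSS+UA against DSS (log2 -3.60 ± 0.90 SE, adjusted p = 0.0424), lost under 13 further alternatives (adjusted p up to 0.144). Without DSS 2 these changes were log2 -3.63 and -1.46.

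Like Mmp8 and Mmp9, the neutrophil marker list summed to more in DSS than in Con and to less in UA+DSS than in DSS. The summed DSS+UA range overlapped that of DSS, whereas Mmp8 and Mmp9 in DSS+UA lay below every DSS library. Of the list, Cxcr2, Trem1, Ngp and Mmp25 also lay below every DSS library in DSS+UA, while the others overlapped. The list holds 12 genes, among them S100a8, S100a9 and Csf3r, and was called raised for 10 of 11 tested in DSS against Con. Its summed level was 10.5 to 115 CPM in Con, 910 to 18208 in DSS, 30.9 to 127 in UA+DSS and 411 to 1027 in DSS+UA. Mpo was without a count in Con and reached at most 0.6 CPM in any library. Without Ly6g, whose level of 112 CPM made up most of the sum in Con 1, the other 11 genes summed to 2.22 to 2.41 CPM in Con, 623 to 17907 in DSS, 16.2 to 72.2 in UA+DSS and 138 to 700 in DSS+UA. The part of neutrophil number in the Mmp8 and Mmp9 results was not tested. The fibroblast list (10 genes, among them Pdgfra, Dcn and Lum) summed to 537 to 735 CPM in Con, 1346 to 1923 in DSS, 426 to 740 in UA+DSS and 392 to 790 in DSS+UA, with no gene at 0 in any group. In DSS against Con 6 of the 10 were called raised, Dcn among them with a mean of 238 CPM in Con and 917 in DSS, and Dpt, Lum, Col14a1 and Fap were not called (log2 -0.67 to 0.51). The part of this list in the Mmp2 and Mmp3 results was not tested.

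**Figure D2:**
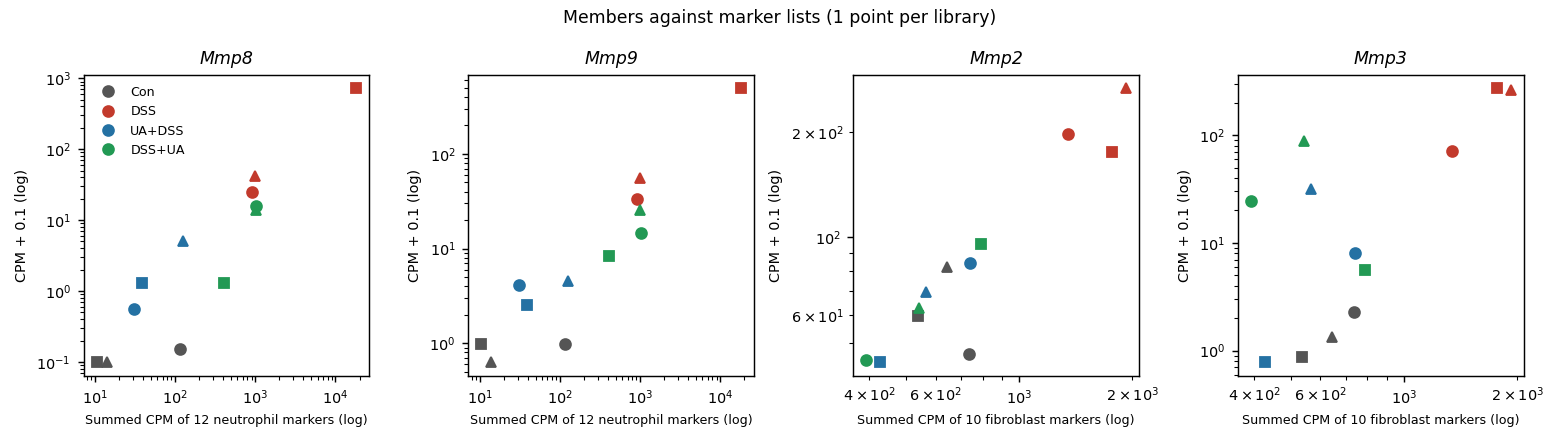
Each point is 1 library (colours are groups, and circles, squares and triangles are replicates 1, 2 and 3), with the member's CPM + 0.1 on the y axis and the summed CPM of a marker list on the x axis, both log. The square at the far right of the Mmp8 and Mmp9 panels is DSS 2, at 18208 CPM of neutrophil markers.

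Timp1 and Timp3 both rose in DSS. Timp1 encodes a secreted inhibitor of most metalloproteinases that is induced in inflammation, and Timp3 encodes the inhibitor that stays bound to the extracellular matrix and also inhibits ADAM17. Timp1 (ENSMUSG00000001131, chrX:20870166-20874735, + strand) had 2.38, 1.39 and 2.30 CPM in Con and 26.4, 114 and 102 CPM in DSS, a 39.9-fold rise (log2 5.32 ± 0.87 SE, adjusted p = 0.00346). Its low library in DSS was DSS 1, as for Mmp3, Mmp10 and Mmp13. UA+DSS held 4.11, 1.62 and 15.1 CPM and DSS+UA 14.8, 10.1 and 24.3 CPM. All 6 lay below the DSS libraries, and DSS+UA lay above Con throughout. Timp1 fell 11.6-fold in UA+DSS against DSS (log2 -3.53 ± 0.79 SE, adjusted p = 0.0169), a call lost in a fit of the 2 groups alone (0.0568) and without UA+DSS 1 (0.0546) or UA+DSS 2 (0.0674), and the change was log2 -4.82 without UA+DSS 3. This call was also lost with the position score as a covariate (0.182). Timp1 was not called in DSS+UA against DSS (log2 -2.30 ± 0.74 SE, adjusted p = 0.0758), except by DESeq2 (0.00906).

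Timp3 (ENSMUSG00000020044, chr10:86300372-86349506, + strand) had 16.8, 16.8 and 60.9 CPM in Con and 163, 61.4 and 138 CPM in DSS. Con 3 and DSS 2 almost met, and the 3.84-fold rise (log2 1.94 ± 0.51 SE, adjusted p = 0.0196) was lost under 5 alternatives, among them leaving out Con 1, Con 2 or DSS 1 (adjusted p up to 0.0818). Without Con 3 it was log2 2.84. UA+DSS held 55.0, 51.2 and 35.5 CPM and DSS+UA 22.9, 26.2 and 24.4 CPM. DSS+UA was lower than UA+DSS in every library, the opposite order to that of the Mmp9 values. Timp3 was called lowered in DSS+UA against DSS (4.93-fold, log2 -2.30 ± 0.52 SE, adjusted p = 0.0318) and not in UA+DSS against DSS (log2 -1.36 ± 0.50 SE, adjusted p = 0.0814). The DSS+UA call was lost under 8 further alternatives (adjusted p up to 0.116). The UA+DSS change was called by DESeq2 (adjusted p = 0.0265) and without Con 3 (0.0235). Counts of Timp3 are uncertain, since 21.4% of its 50-base stretches occur in other genes and its exons overlap those of Syn3 on the opposite strand, which averaged 1.04 to 1.68 CPM by group.

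**Figure D3:**
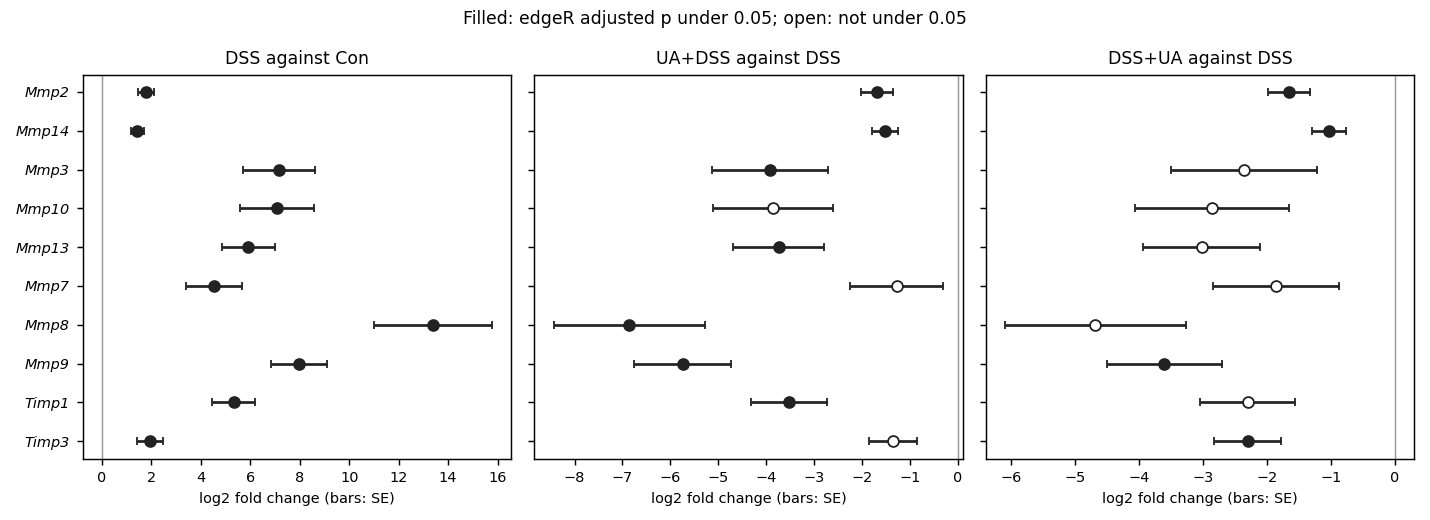
log2 fold change of each member with its SE (bars) in the 3 comparisons that involve DSS, fitted in edgeR over 12 libraries. Filled points passed an adjusted p of 0.05 (10, 7 and 4 members from left to right), and the Mmp8 point of 13.38 rests on 1 Con count.

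Both UA groups were also set against Con. For UA+DSS against Con edgeR called none of the members (0.00566% of the tested genes were called, which is 1 gene), although 6 members had an unadjusted p under 0.05. DESeq2 called 1, Mmp8 (adjusted p = 0.0209), and limma-voom none. For 4 members, Mmp7, Mmp8, Mmp9 and Mmp10, the UA+DSS libraries lay above all of Con, as they did for 9.62% of the tested genes. Against the same Con libraries, 4 members were called raised in DSS+UA, as were 9.13% of the tested genes: Mmp3 (log2 4.80 ± 1.33 SE, adjusted p = 0.0339), Mmp8 (8.70 ± 2.41 SE, 0.0336), Mmp9 (4.37 ± 1.02 SE, 0.0185) and Timp1 (3.01 ± 0.80 SE, 0.0287). The Mmp8 value rests on the single Con count, and pooled counts gave a ratio of 598 (exact 95% interval 107 to 23646, counting error only). For 8 members DSS+UA lay above all of Con, as for 19.8% of the tested genes. None of these 4 calls held in limma-voom, without the low-count filter, or without Con 2, Con 3 or DSS+UA 3.

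The 2 UA schedules, which differed in their start and in the days of UA given, were compared directly. None of the 10 members was called in UA+DSS against DSS+UA in edgeR, where 16.8% of the tested genes were called, and only Mmp9 had an unadjusted p under 0.05 (log2 -2.15 ± 0.89 SE, adjusted p = 0.117). DESeq2 called Mmp9 (adjusted p = 0.0273), limma-voom none, and a fit of these 2 groups alone called Mmp9 (0.0135) and Timp3 (0.0124). Mmp9 and Mmp14 were lower and Timp3 was higher in every UA+DSS library than in any DSS+UA library, a separation that 22.5% of the tested genes showed in the lower and 22.7% in the higher direction. The 7 members called lowered in UA+DSS against DSS, against 4 in DSS+UA against DSS, are therefore not a tested difference between the UA schedules. Without UA+DSS 2, the lowest UA+DSS library for 8 members, 1 of the 7 calls was left (Mmp14), and without DSS+UA 3 none of the 4 was. With the position score as a covariate no member was called in either comparison, while all 10 log2 fold changes stayed negative, at -5.62 to -1.38 in UA+DSS against DSS (adjusted p at least 0.105) and -5.34 to -1.10 in DSS+UA against DSS (adjusted p at least 0.0677).

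Levels can be compared between genes only per length of transcript, and on the scale of CPM per kb of exon the order of the members differed between groups. In Con, Mmp2 (18.6 ± 5.34 SD, n = 3) and Mmp14 (17.9 ± 1.15 SD) led with overlapping ranges, above all other members. Timp3 followed at 3.87 ± 3.13 (SD) and Timp1 at 2.28 ± 0.621 (SD) CPM per kb. Mmp8 stood last at 0.00711 ± 0.0123 (SD), and its range did not reach that of Mmp9 (0.217 ± 0.0569 SD). In DSS the order began with Mmp3 (112 ± 62.4 SD), Mmp8 (109 ± 165 SD), Mmp10 (98.5 ± 82.5 SD) and Timp1 (91.2 ± 53.6 SD) and ended with Timp3 (14.9 ± 6.52 SD), with every neighbouring pair overlapping. In UA+DSS Mmp2 (19.6 ± 6.09 SD) and Mmp14 (16.8 ± 6.46 SD) led again, and in DSS+UA Mmp14 (23.5 ± 1.56 SD), Mmp3 (21.7 ± 23.8 SD) and Mmp2 (20.0 ± 7.68 SD).

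On this scale the make-up of the summed level of the 8 Mmp members differed between Con and DSS. Mmp genes that are not members were left out of this sum. Among them, Mmp15 averaged 19.5 CPM per kb in Con, 14 in DSS, 30.3 in UA+DSS and 16.9 in DSS+UA. Summed over the 8 Mmp members, the level was 35, 37.3 and 48.2 CPM per kb in Con and 218, 1000 and 504 in DSS. Mmp2 and Mmp14 together made up 91.5%, 92.1% and 89.6% of that sum in Con and 45.9%, 11.1% and 24.4% in DSS. DSS libraries differed in what took their place. DSS 3 was led by Mmp3, Mmp10 and Mmp13 (68.3%), DSS 2 was divided between these 3 (44.9%) and Mmp8 with Mmp9 (43.7%), and DSS 1 had 25.0% and 8.96% of these with 20.2% of Mmp7. In UA+DSS the share of Mmp2 and Mmp14 was 61.0%, 69.5% and 47.3%, and in DSS+UA 48.0%, 71.9% and 27.7%. Neither UA group reached the shares of Con. UA+DSS 3 lay just above DSS 1, the other UA+DSS libraries lay further above it, and DSS+UA 3 lay within the DSS range. These shares carry no test.

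Among the 4 Timp genes the share of Timp1 was higher, and that of Timp2 lower, in each DSS library than in any Con library. Timp1 made up 10.4%, 8.88% and 6.25% of their summed level per kb in Con, 24.6%, 73.0% and 62.4% in DSS, 11.5%, 5.09% and 37.1% in UA+DSS and 47.6%, 27.4% and 58.2% in DSS+UA. Timp2, which is needed with Mmp14 to activate Mmp2, held 75.0% to 77.7% in Con and 22.6% to 58.4% in DSS. The ratio of the sum of the 8 Mmp members to that of the 4 Timp genes was 1.16 to 2.12 in Con. In DSS it was 1.81, 5.67 and 2.73, overlapping Con at DSS 1. This ratio leaves out the Mmp genes that are not members, such as Mmp15 (mean 19.5 CPM per kb in Con and 14 in DSS). It is therefore no balance of all metalloproteinases and inhibitors, and it was not tested.

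**Figure D4:**
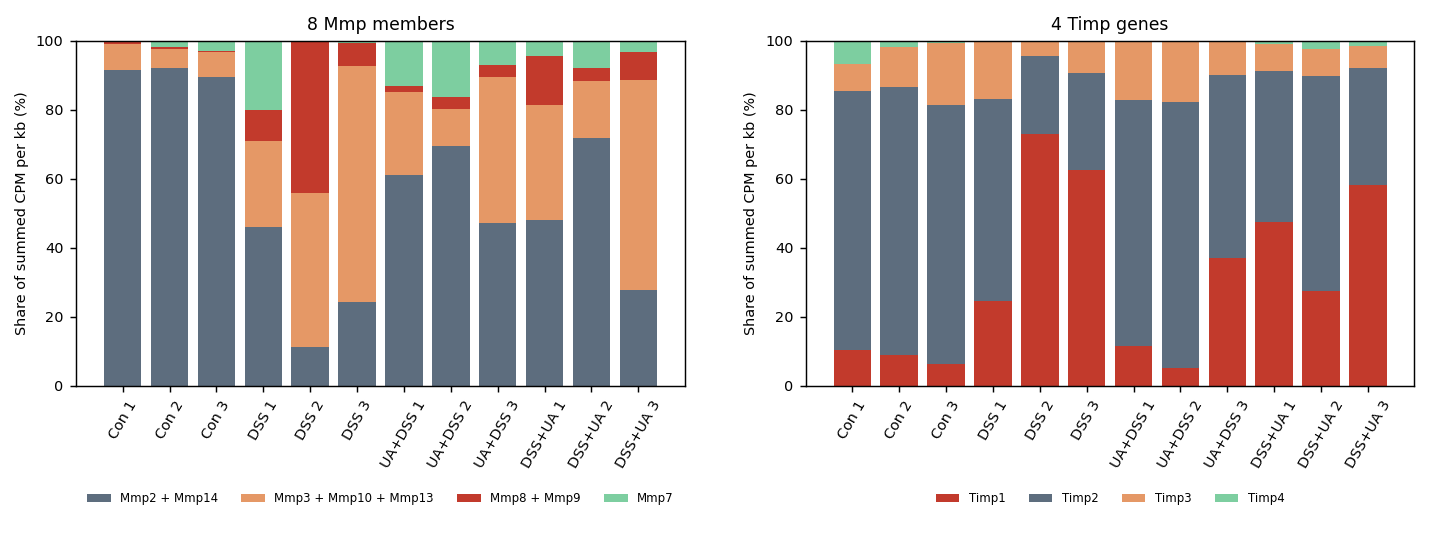
Stacked shares (%) of the summed CPM per kb in each library, for the 8 Mmp members on the left and the 4 Timp genes on the right. Mmp2 with Mmp14 fill 89.6% to 92.1% of the bar in Con and 11.1% to 45.9% in DSS.

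The log2 CPM values of Mmp3, Mmp10, Mmp13 and Timp1 correlated across the 12 libraries at Pearson r of 0.914 to 0.976 in their 6 pairs, and Mmp8 with Mmp9 at 0.971. These groups were not separate, since Mmp8 and Mmp9 correlated with Mmp3, Mmp10, Mmp13 and Timp1 at 0.892 to 0.934, and 14 of the 45 pairs of members exceeded 0.9. Mmp7 correlated with the other members at only 0.291 to 0.639. These values share the 4 groups and the libraries and are given as a description. Over 13724 genes averaging a log2 CPM of 1 or more, the ones most like Mmp3 were Timp1 (r = 0.976) and Cemip (0.967), and most like Timp1 were Mmp3 and Cemip (0.973). Mmp10 was most like Mmp13 (0.957) and Timp1 (0.95), and Mmp13 most like Apcdd1 (0.965) and Mmp10. Mmp8 was most like Lcn2 (0.996) and Retnlg (0.987), and Mmp9 most like Ifitm6 (0.996) and Fpr2 (0.99). For Mmp2 these genes were Lama4 (0.977) and Fzd1 (0.972), for Mmp14 Fkbp10 (0.97) and Vcan (0.968), and for Timp3 Man1c1 (0.977) and Ust (0.959). Mmp7 had its nearest in the immunoglobulin genes Ighv2-2 (0.921) and Ighv1-9 (0.891).

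Other genes of the pathway were taken from lists that were chosen with earlier results of these data known. Over all tested genes, 13.9% were raised in DSS against Con. Against DSS, 10.5% were lowered in UA+DSS and 5% in DSS+UA. Of 18 further metalloproteinases and inhibitors 14 were tested, and 5 of them were raised in DSS against Con: Mmp19, Mmp12, Mmp25, Mmp27 and Timp2. Mmp19 (log2 3.68 ± 0.38 SE, adjusted p = 0.000868) had 2.79, 2.39 and 5.40 CPM in Con and 37.2, 63.8 and 35 CPM in DSS. Mmp12, the macrophage elastase and a neighbour of Mmp13 on chromosome 9, rose by log2 4.77 ± 0.77 (SE, adjusted p = 0.00315), from 0.931, 0.333 and 0.321 CPM to 5.20, 20.3 and 18.4 CPM. Mmp25, a membrane-bound enzyme of leukocytes that is also in the neutrophil list, rose by log2 6.51 ± 1.08 (SE, adjusted p = 0.0035), by 4.64 without DSS 2 and by 7.13 without Con 2. Without Con 1 the Mmp12 value was 5.45. The median log2 fold change over the 14 tested was 0.53. The same list had 5 lowered and 1 raised in UA+DSS against DSS, where 8.21% of the tested genes were raised (Mmp15, log2 1.12 ± 0.34 SE, adjusted p = 0.041), and it had 6 lowered in DSS+UA against DSS. Several of these calls were weak, and in UA+DSS against DSS that of Mmp15 was lost under 10 alternatives (adjusted p up to 0.134) and those of Timp2 and Mmp27 under 11 each.

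Of the activators and binding partners, 8 of 12 tested were raised and 1 was lowered in DSS against Con (12.6% of all tested genes were lowered, and the median of the list was log2 1.49), and 5 were lowered and 1 raised in UA+DSS against DSS. Lrp1, the receptor that clears protease complexes, rose by log2 1.44 ± 0.19 (SE, adjusted p = 0.00167), Plat, a plasminogen activator, by 2.89 ± 0.42 (SE, 0.00236) and Lcn2, whose product binds Mmp9 protein, by 9.67 ± 1.80 (SE, 0.00544). Without DSS 2 the log2 values were 2.20 for Plat and 6.85 for Lcn2. Of the ADAM and ADAMTS proteases 11 of 16 were raised (median log2 1.83), led by the aggrecanase Adamts4 (log2 6.33 ± 0.54 SE, adjusted p = 0.00043), and 9 and 8 were lowered in UA+DSS and DSS+UA against DSS. Of 18 matrix substrates 17 were raised (median log2 1.90), Lamc1, Vcan and Col4a1 with the smallest p, and 16 and 11 were lowered in the UA groups. Of 13 inducing cytokines and AP-1 subunits 9 were raised (median log2 4.54), with Il11 (log2 7.48 ± 0.82 SE, adjusted p = 0.00117), Tgfb1 (2.11 ± 0.28 SE, 0.00167) and Il1b (10.31 ± 1.66 SE, 0.00332) at the smallest p. The Il1b value was 7.29 without DSS 2 and 11.12 without Con 3, and the Il11 value 8.13 without Con 1. In this last list 10 were lowered in UA+DSS against DSS and 2 in DSS+UA against DSS, comparisons that share the DSS libraries, and the difference between these counts was not tested. The shares over all tested genes were 13.9% raised in DSS against Con, and 10.5% and 5% lowered in UA+DSS and DSS+UA against DSS. With the position score as a covariate, 3 of all tested genes were called in UA+DSS against DSS and 199 in DSS+UA against DSS.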

How the data were processed

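Total RNA from mouse colon was sequenced in 12 libraries, 3 per group, with groups and replicate numbers taken from the sample labels. The authors deposited whole-number read counts per Ensembl gene without normalization. The submitters' processing notes name FastQC, HISAT2 and Cuffdiff and the build GRCm38. Versions, strand use and the handling of multi-mapped reads: not given in the sources used here.

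Of 54532 identifiers, 54495 were named from GENCODE M21 (GRCm38). Counts of 17658 genes kept by filterByExpr were scaled by TMM factors (0.871 to 1.09) and fitted in 1 robust quasi-likelihood model of edgeR 4.0.16 (R 4.3.3). P-values were adjusted over the tested genes (Benjamini-Hochberg, threshold 0.05). The fit was tested on simulated data. SE is the log2 fold change divided by the square root of F. Correlations used log2 CPM (prior count 2). The lengths are exon unions, and promoters came from the RefSeq table. Python 3.11.15 with pandas 2.3.3 was used for the rest. Intervals cover counting error only.

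Named genes are the members, the 3 smallest p of each pathway list, further Mmp and Timp genes, markers, and the 2 most alike genes per member. Members and lists were chosen with earlier results of these data known. Alternatives were library size or upper-quartile scaling, DESeq2 1.42.0, limma-voom (limma 3.58.1), 2 other filters, fitting only the groups compared, the replicate block, the position score as a covariate and leaving out each library. Among same-numbered samples of different groups the deviations correlated at -0.216 to 0.187 (5 of 18 pairs over 0.1), so the numbers were not taken to pair samples.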

Additional observations from a re-analysis of the deposited data

Results flagged for a closer look

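The UA+DSS and DSS+UA libraries were compared directly, and edgeR called 3 of the pathway list genes named here, none of them a member. Over the full lists 2 activators or partners and 1 ADAM or ADAMTS gene were raised. Of the inducing cytokines and AP-1 subunits 1 was lowered, and of all tested genes 16.8% were called. Lrp1, the endocytic receptor that clears metalloproteinase and inhibitor complexes, was higher in UA+DSS by log2 1.16 ± 0.19 (SE, adjusted p = 0.00748). UA+DSS held 299, 302 and 293 CPM, and DSS+UA 124, 129 and 148 CPM. Mmp16, a membrane-type metalloproteinase, was higher by log2 2.21 ± 0.63 (SE, adjusted p = 0.036), with means of 0.725 and 0.152 CPM. Mmp17, another membrane-bound enzyme, was higher by log2 1.73 ± 0.53 (SE, adjusted p = 0.0452), with means of 10.6 and 3.2 CPM. In each of these 3 genes the UA+DSS libraries lay above all DSS+UA libraries, as they did for 22.7% of the tested genes. The Lrp1 call held under the other 20 alternatives (adjusted p up to 0.037), while those of Mmp16 and Mmp17 were lost under 8 and 10 of them, and none of the tested genes was called with the position score as a covariate.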

How the results depend on the processing

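Of the members called in DSS against Con (10), 7 to 10 were called under every alternative. The 7 calls of UA+DSS against DSS became 4 without the low-count filter, 3 in a fit of the 2 groups and 0 with the position score. The 4 of DSS+UA against DSS became 7 in DESeq2, 2 in limma-voom, 2 without the filter and 0 with the position score. The 0 of UA+DSS against Con became 1 in DESeq2. The 4 of DSS+UA against Con became 0 in limma-voom, without the filter and with the position score, and 6 in DESeq2 and in a fit of the 2 groups. The 0 of UA+DSS against DSS+UA became 1 in DESeq2 and 2 in a fit of the 2 groups. Over all genes, a fit of the 2 groups gave 2131 calls in place of 4688 in DSS against Con, 2072 in place of 3300 for UA+DSS and 430 in place of 1331 for DSS+UA (both against DSS), and 2035 in place of 3193 in DSS+UA against Con. DESeq2 gave 3126 calls and no filter 882 in DSS+UA against DSS. The 1 call of UA+DSS against Con became 376 in DESeq2 and 0 in limma-voom, without the filter, with at least 10 counts in every sample and with the position score. With the position score the all-gene counts were 3 for UA+DSS and 199 for DSS+UA against DSS, and 0 in place of 2961 in UA+DSS against DSS+UA. The filter of at least 10 counts left Mmp7 and Mmp8 untested. The causes of these changes were not tested.

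Leaving out each library in turn, member calls ranged from 8 to 10 in DSS against Con, 1 to 7 for UA+DSS and 0 to 5 for DSS+UA (both against DSS), 0 to 7 in DSS+UA against Con and 0 to 1 in UA+DSS against DSS+UA. The all-gene counts ranged from 2894 to 4708 in DSS against Con, 183 (without UA+DSS 2) to 4112 for UA+DSS and 25 (without DSS+UA 3) to 1825 for DSS+UA (both against DSS), 0 to 4 in UA+DSS against Con, 1062 (without DSS+UA 3) to 4057 in DSS+UA against Con and 560 (without UA+DSS 2) to 3893 in UA+DSS against DSS+UA.

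With the replicate number as a block, member calls were 9 in DSS against Con (Mmp7 lost, adjusted p = 0.0537), 6 for UA+DSS (Mmp13 lost, adjusted p = 0.0516) and 1 for DSS+UA against DSS, 0 in UA+DSS against Con, 4 in DSS+UA against Con and 0 in UA+DSS against DSS+UA, and all-gene calls in DSS+UA against DSS fell from 1331 to 552. Only 5 of 12 samples deviated most like a sample of their own number, so the block is not a pairing of the samples.

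The signs of some members turned when a library was left out. Without DSS 1 Mmp7 became log2 1.09 in UA+DSS and 0.51 in DSS+UA (both against DSS, with ranges of -1.77 to 1.09 and -2.35 to 0.51 over the libraries left out). For UA+DSS against Con these ranges were -0.14 to 0.31 for Mmp2 (-0.10 without Con 1) and -0.35 to 0.19 for Mmp14. For DSS+UA against Con they were -0.22 to 0.36 for Mmp2 (-0.07 without Con 1) and -0.66 to 0.55 for Timp3 (0.55 without Con 3). For UA+DSS against DSS+UA they were -0.28 to 0.29 for Mmp2 (0.19 without UA+DSS 2), and -2.48 to 0.48 for Mmp10 and -1.29 to 0.05 for Mmp13, both turned without DSS+UA 3. With the position score, Mmp2 became -0.21 and Mmp14 0.01 in UA+DSS against Con, Timp3 0.15 in DSS+UA against Con, and Mmp3 0.12 and Timp3 -0.03 in UA+DSS against DSS+UA, where Mmp2 was 0.05 with library size alone and 0.01 with upper-quartile factors. All of these were uncalled before and after.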

Other observations

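Ly6g, a surface antigen used to identify mouse neutrophils, did not follow the other 11 neutrophil markers from library to library. It had 8.26 to 112 CPM in Con, 190 to 300 in DSS, 12 to 54.5 in UA+DSS and 274 to 390 in DSS+UA. The other markers had a summed level of 623 to 17907 CPM in DSS and 138 to 700 in DSS+UA. Ly6g was called lowered in UA+DSS against DSS+UA (log2 -3.58 ± 0.97 SE, adjusted p = 0.0317) and lay in DSS+UA within and above its DSS range. Ly6g was singled out after its values were seen. Its highest Con library, Con 1, was also the only Con library with a position score above 0 (5.53). A part of colon position in the Ly6g values was not tested. With the position score as a covariate, none of the tested genes, Ly6g included, was called in UA+DSS against DSS+UA.

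Summed epithelial markers moved the other way from the metalloproteinases. The list of 8 genes summed to 13094 to 18327 CPM in Con, 7353 to 11973 in DSS, 14433 to 17166 in UA+DSS and 15658 to 24545 in DSS+UA, so the DSS libraries lay below those of each other group. Of the 8 genes 1 was called lowered in DSS against Con, as were 12.6% of the tested genes. Against DSS, 2 were raised in UA+DSS (8.21% of the tested genes were) and 4 in DSS+UA (448 of 17658 tested genes were). Smooth muscle markers (8 genes) summed to 532 to 953 CPM in DSS+UA and to 1410 to 2813 in UA+DSS, with 820 to 1685 in DSS and 1290 to 4062 in Con.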
